A study of Rattus with 6 samples.

Results

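The transcriptome described here is that of control cardiac fibroblasts from the rat, the main matrix-producing cell of the heart, grown in culture. It was read from the 3 libraries titled siCtrl, out of 6 libraries in the series. The other 3 carry an siRNA against Nono, the gene for an RNA-binding protein of paraspeckles and splicing, and are not used. The cells were a commercial product sold as rat cardiac fibroblasts, with cardiac muscle as the stated source. They were kept in the supplier's complete medium for these cells, and neither their passage nor the age and strain of the animals is stated in the labels. The libraries are titled as controls for an siRNA, whereas another field of the same labels names an empty vector, so what the control cells received is not settled here. The stated harvest time of 48 h refers to RT-qPCR and western blotting, with no separate time given for sequencing. Nothing in the labels says that the 3 libraries came from separate cultures, so the spread between them may be technical. Nono itself was read at 86.2, 87.1 and 91.6 FPKM in siCtrl replicates 1, 2 and 3, which places it at rank 749 of all genes.

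Fibroblasts build and remodel the connective tissue of the myocardium. They secrete procollagens, which are modified in the endoplasmic reticulum, trimmed outside the cell, assembled into fibres and cross-linked, and they also secrete the proteases and inhibitors that control the turnover of that matrix. In the heart most of them descend from the epicardium and carry the transcription factor Tcf21 and the receptor Pdgfra. On stiff culture plastic they can take on features of myofibroblasts, such as alpha smooth muscle actin, encoded by Acta2.

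Library depth was 27792357, 28597437 and 32869992 counts in replicates 1 to 3. A gene was called detected at 1 FPKM or more (read fragments scaled by gene length and library size) in all 3 libraries. Of the 21378 genes in the count table, 10713 (50.1%) were detected, 638 reached 100 FPKM in every library and 97 reached 1000 FPKM, whereas 1141 had no count in any library. The share of 50.1% is the background for every count of detected list members below. Listed genes not found by symbol in the count table are left out of these counts. They include 16 of 39 Hox genes and 6 of 21 cardiomyocyte markers. Protein-coding genes supplied 10405 of the detected genes and 99.2% ± 0.0374 (SD, n = 3) of the counts. Long noncoding RNAs, of which 172 among 3569 were detected, supplied 0.385% ± 0.00193. Expression was concentrated in few genes, since 137 genes held 50% of the summed FPKM and 432 genes held 50% of the counts. None of the 38 olfactory receptor genes, which serve as a check for genes that fibroblasts should not use, was detected, and the highest of their mean levels was 0.0867 FPKM.

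All 8 fibroblast markers were detected, and 6 of them had a mean of at least 100 FPKM. Col1a1 (chromosome 10), which encodes the alpha-1 chain of type I collagen, was read at 2322, 2431 and 2534 FPKM in replicates 1, 2 and 3. Its partner chain Col1a2 (chromosome 4) was read at 1330, 1400 and 1478 FPKM, and Col3a1 (chromosome 9), the gene of type III collagen, at 1198, 1189 and 1385 FPKM. The 3 collagen genes were highest in replicate 3, and their ranks by mean FPKM were 30 for Col1a1, 76 for Col1a2 and 85 for Col3a1. By CPM, counts scaled to library size and not to length, the same genes ranked 2, 7 and 9.

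Dcn (chromosome 7), the gene of the collagen-binding proteoglycan decorin, followed at 630, 713 and 711 FPKM. Acta2 (chromosome 1) was read at 477, 499 and 510 FPKM, rank 180. Postn (chromosome 2), which encodes the matricellular protein periostin of activated fibroblasts, was read at 323, 334 and 369 FPKM, rank 228. The collagen genes thus stood above the activation markers in every library, and the levels of Acta2 and Postn did not overlap. Pdgfra (chromosome 14) and Tcf21 (chromosome 1) were lower, as is common for receptors and transcription factors. Pdgfra was read at 71.0, 74.4 and 73.3 FPKM (rank 909), and Tcf21 at 62.4, 60.2 and 62.4 FPKM (rank 1058).

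**Figure D1:**
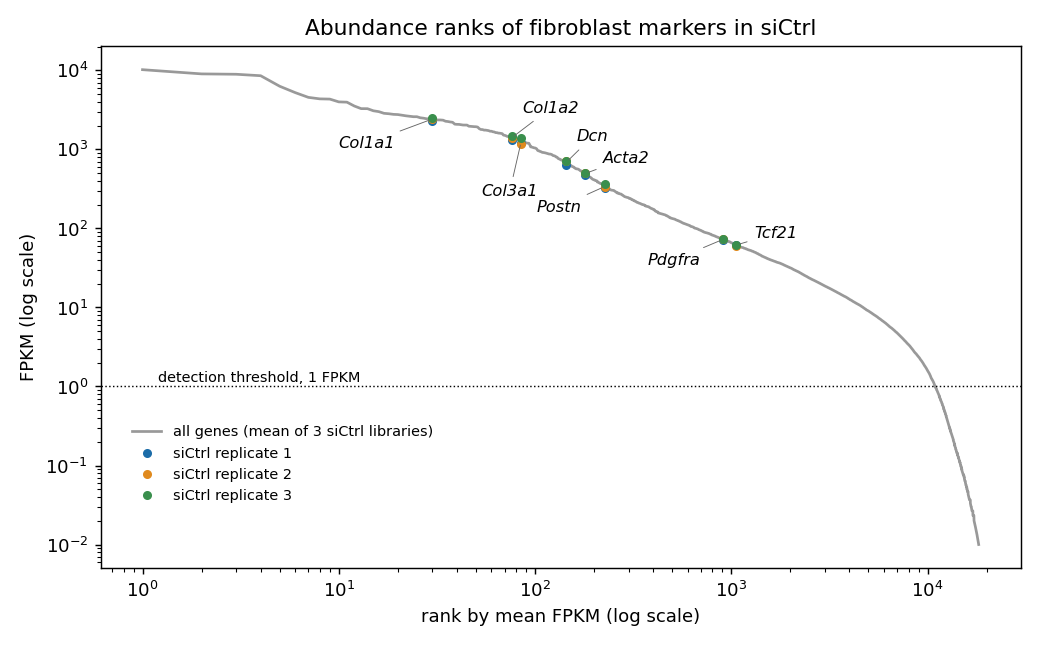
The grey line gives the mean FPKM of every gene against its rank, with both axes on a log scale, and the coloured points give the 8 fibroblast markers in each siCtrl library. The points of a marker nearly coincide, from Col1a1 at rank 30 down to Tcf21 at rank 1058, and all lie above the detection threshold of 1 FPKM, drawn as a dotted line.

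The markers varied little between the libraries. Their largest difference between the highest and the lowest library, the range, was that of Col3a1, at 1.18-fold on TMM-scaled CPM, and that of Pdgfra was 1.02-fold. Counts of 6 of the 8 markers differed by more than counting error (chi-square test of the 3 counts against the scaled library sizes, Benjamini-Hochberg adjusted over 12755 genes), against 25.3% of all genes tested. The exceptions were Pdgfra and Tcf21. No marker had a range of 1.5-fold or more, against 3.89% of all genes. At counts as high as 413591 to 533967 for Col1a1, small differences exceed counting error, so the size of the range is the more useful measure here. Replicate 3 held the highest value for 6 of the 8 markers, compared with 3897 of the 12755 genes tested.

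Among the nuclear genes, the leading transcripts combined iron storage, translation and secreted matrix. Fth1, the ferritin heavy chain, was read at 5397, 5130 and 5185 FPKM, ahead of Rpl41 with a mean of 4561 FPKM. Mgp, the gene of matrix Gla protein, an inhibitor of calcification, came next at 4579, 4229 and 4206 FPKM. Eef1a1, the elongation factor that brings aminoacyl-tRNA to the ribosome, and Sparc, a collagen-binding matricellular protein, did not differ beyond their spread, at 3999 ± 107 and 3967 ± 80.0 FPKM (SD, n = 3). Tmsb10, an actin-sequestering thymosin, followed at 3544 ± 283 FPKM. Bgn, which encodes the proteoglycan biglycan, was read at 2678, 2783 and 2830 FPKM. The 20 most abundant also included the ribosomal genes Rplp0, Rps6, Rps18, Rplp1, Rps2, Rpl31, Rpsa, Rps29 and Rps14, together with Tpt1, the ferritin light chain Ftl1 and Col1a1.

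Several abundant secreted or inducible products stood just below, and are named because of their values. Pla2g2a, a secreted phospholipase A2, was read at 1957, 2039 and 2170 FPKM. Ifitm3, a membrane protein that restricts virus entry, had a mean of 1969 FPKM, and Mt2A, a metal-binding metallothionein, 1919 FPKM. Lcn2, the siderophore-binding lipocalin, was read at 1389, 1619 and 1518 FPKM. Gpx3, a secreted glutathione peroxidase, had a mean of 1587 FPKM, and Ccdc80, a matrix-associated glycoprotein, 1384 FPKM. These genes were more abundant than Col3a1 in the mean, and Pla2g2a exceeded Col1a2 in every library.

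The 5 genes of highest mean FPKM were mitochondrially encoded. The mitochondrial chromosome gave 6.12% ± 0.0950 of the counts, and its 13 mRNAs gave 11.5% ± 0.441 of the summed FPKM. COX1, a subunit of cytochrome c oxidase, held rank 1 in each library, at 10000, 10437 and 10231 FPKM. COX3 and COX2 followed at 9040 ± 214 and 8945 ± 102 FPKM, which do not differ beyond their spread, and ATP6, a subunit of ATP synthase, at 8546, 8563 and 8601 FPKM. ATP8 had a mean of 6305 FPKM and CYTB, the complex III subunit, 4366 FPKM. The 7 complex I subunits ran from ND2 at 3281 FPKM through ND4 at 2830, ND1 at 2710.3, ND3 at 2487, ND5 at 1225 and ND4L at 926 to ND6, the only mRNA from the opposite strand, at 484 FPKM. ND4L and ATP8 overlap neighbouring genes, and how overlapping reads were assigned is not given in the sources used here. The mitochondrial rRNAs mt-Rnr1 and mt-Rnr2, read after poly(A) selection, stood at 463 and 352 FPKM.

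The extracellular matrix made up a large share of the output. The 120 genes of 5 matrix lists (fibrillar collagens, other collagens, glycoproteins, proteoglycans and basement membrane) included 85 detected genes and took 8.43%, 8.86% and 9.04% of the counts in replicates 1, 2 and 3. Their share of the summed FPKM was 4.58% ± 0.171, lower on this scale, which corrects for the length of transcripts. Replicate 1 held the lowest share on both scales.

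Of the 11 fibrillar collagen genes, 7 were detected. The type V chains Col5a2 and Col5a1, which start and limit fibril growth, had means of 132 and 95.3 FPKM, at a ratio of 1.38 ± 0.0169. Col11a1 and Col5a3 were far lower, at 7.07 and 5.63 FPKM, and Col2a1, the cartilage collagen, had 0, 2 and 2 counts. The FPKM ratio of Col1a1 to Col1a2, which combine in a heterotrimer of type I collagen, was 1.75, 1.74 and 1.71 in replicates 1, 2 and 3. Each of these ratios was nearly the same in the 3 libraries. Col3a1 to Col1a1 was more variable, at 0.517 ± 0.0287.

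Network-forming and other collagens were detected for 14 of the 28 genes in the table, close to the 50.1% of all genes. Col6a1 and Col6a2, chains of the beaded filaments of type VI collagen, had means of 577 and 418 FPKM, whereas their partner Col6a3 had 42.7 FPKM. Col6a1 exceeded Col6a3 by 13.5-fold ± 0.469, on a scale corrected for length. The basement membrane chains Col4a1 and Col4a2 were read at 413 and 331 FPKM, at a ratio of 1.25 ± 0.0295. Next came Col15a1 at 45.2 FPKM, while Col4a3, Col4a4 and Col4a6 stayed below 1 FPKM.

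Of the 17 basement membrane genes, 12 were detected, against 50.1% of all genes. Beside the type IV collagens, the leading members were Lamb1 at 148 FPKM, Nid1 (nidogen, a linker of laminin and collagen) at 133 FPKM and Lamc1 at 87.5 FPKM. Among the laminin alpha chains, Lama4 was read at 76.4, 80.6 and 84.1 FPKM and Lama2 at a mean of 11.6 ± 0.537 FPKM, a ratio of 6.95 ± 0.0523. Lama1 and Lama3 were below 0.1 FPKM. The most abundant laminin transcripts of each kind were thus those of the alpha-4, beta-1 and gamma-1 chains. Lamb2 at 20.6 FPKM and Lama5 at 10.8 FPKM were also detected, beside Lama2.

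Matrix glycoproteins were detected for 34 of 42 genes in the table, with 15 at a mean of 100 FPKM or more. After Mgp and Sparc came Igfbp7, a secreted binding protein, at 858 ± 22.7 FPKM. Fn1, which encodes fibronectin, was read at 547, 640 and 575 FPKM, so replicate 2 was highest. Postn exceeded Tnc, the gene of tenascin C, by 79.1-fold ± 5.80. Eln, the elastin gene, stood at 18.1 ± 1.17 FPKM, and Thbs4 and Vtn were below 0.1 FPKM.

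Proteoglycans were detected for 22 of 26 genes. Bgn exceeded Dcn by 4.25-fold, 3.90-fold and 3.98-fold. They were followed by Prelp at 172, Sdc4 (a syndecan of the cell surface) at 126 and Ogn at 74.9 FPKM, whereas Lum, the gene of lumican, reached only 18.4 FPKM. Bcan, the brain proteoglycan, had no count in any library. A count of 0 allows up to 3 counts, which is 0.110, 0.104 and 0.0912 CPM in replicates 1, 2 and 3. That limit covers counting error only.

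**Figure D2:**
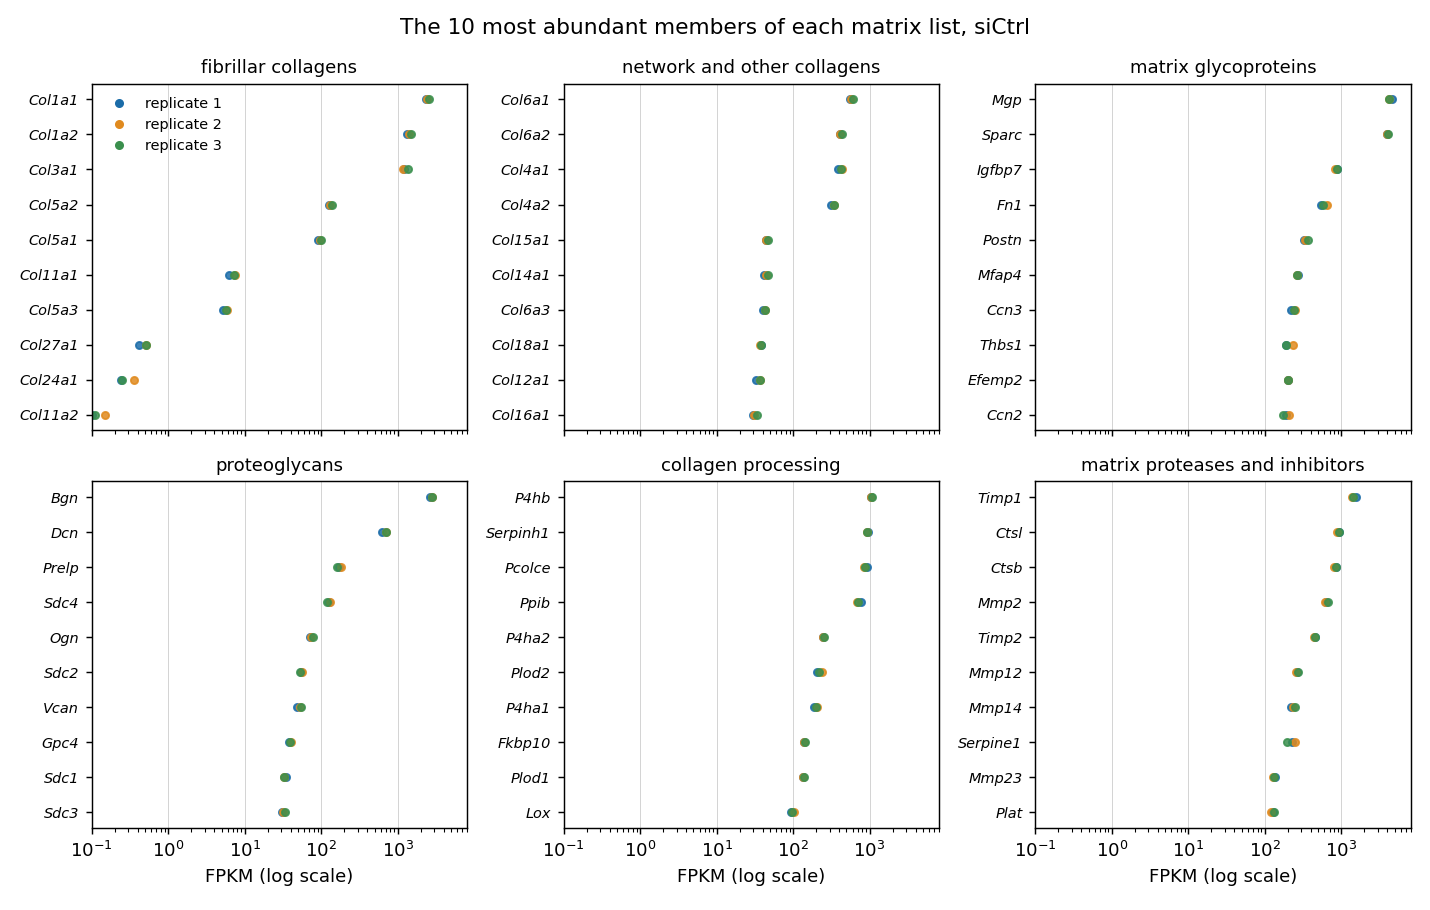
Each row is a gene and each point its FPKM, on a log scale, in siCtrl replicate 1, 2 or 3, for the 10 most abundant members of 6 lists. Points of a gene lie close together relative to the distance between genes, and in the panel of fibrillar collagens the levels fall from 2429 FPKM for Col1a1 to 7.07 FPKM for Col11a1.

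Of the machinery that modifies collagen, 26 of the 28 genes in the table were detected, from 30 listed. P4hb, a subunit of prolyl 4-hydroxylase, was read at 1054, 1054 and 1065 FPKM. Serpinh1, the collagen chaperone HSP47, was read at 968, 924 and 939 FPKM, and Pcolce, an enhancer of procollagen cleavage, at 926, 853 and 882 FPKM. P4hb, the highest of them, stood below Col3a1 in every library. Among the catalytic subunits, P4ha2 exceeded P4ha1 by 1.24-fold ± 0.0614. The cross-linking enzyme Lox had a mean of 97.7 FPKM, and its relative Loxl1 had 72.4 FPKM.

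Proteases and their inhibitors were detected for 24 of 33 genes. Timp1, an inhibitor of metalloproteinases, was the most abundant, at 1537, 1391 and 1426 FPKM. The lysosomal cathepsins Ctsl and Ctsb had means of 909 and 828 FPKM. Among metalloproteinases, the gelatinase Mmp2 led with 632 ± 33.9 FPKM and exceeded its membrane activator Mmp14 by 2.72-fold ± 0.123. Mmp12 came next after Mmp2, at a mean of 263 FPKM, against 233 FPKM for Mmp14. Timp1 exceeded Mmp2 by 2.48-fold, 2.29-fold and 2.13-fold. Mmp3, Mmp8, Mmp10 and Mmp13 each had a mean below 0.1 FPKM.

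Fibroblast surface and identity genes were detected for 26 of 29 members. Vim, the intermediate filament of mesenchymal cells, was read at 1675, 1690 and 1656 FPKM. The calcium-binding S100a6 and S100a4 had means of 961 and 875 FPKM, and the galectin Lgals1 916 FPKM. Thy1, the surface glycoprotein CD90, stood at 101 ± 2.26 FPKM. Pdgfra exceeded its relative Pdgfrb by only 1.06-fold ± 0.0116. The surface genes Cd34 and Dpp4 were not detected, at 0.650 and 0.290 FPKM, nor was Itga11, at a mean of 1.11 FPKM. Dpt, Scara5 and Pi16 of the same list were detected, at means of 47.5, 47.1 and 9.95 FPKM.

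Of 40 transcription factors linked to cardiac fibroblasts in the table, 28 were detected, against 50.1% of all genes. Tcf21 was the most abundant, followed by Prrx1 at 52.7 FPKM and Snai1 at 52.6 FPKM, which did not differ beyond their spread. Osr1 stood at 41.3 and Klf4 at 37.0 FPKM. The cardiac factors Gata4, Hand2, Gata6 and Tbx20 were present at 28.8 ± 1.68, 23.9 ± 0.380, 17.4 ± 0.440 and 8.62 ± 0.530 FPKM. Tbx5, another cardiac factor, was at 0.120 FPKM in each library, and Hand1 and Meox1 had at most 1 count in any library. The median range of these factors was 0.13 on the log2 scale, against 0.15 over all genes, and 0 of the 32 members tested for spread had a range of 1.5-fold. Counts of 5 of them exceeded counting error, and few low-count genes do so.

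Hox genes, whose combinations mark body position in many fibroblasts, were nearly silent. Of 23 in the table, only Hoxd8, at 2.81, 2.50 and 2.54 FPKM, and Hoxb2, at 1.35, 1.08 and 1.17 FPKM, were detected, and 17 had a mean below 0.1 FPKM. At 0.1 FPKM 5 would count as detected, and at 10 counts 6. Hoxa3, Hoxa9, Hoxc11, Hoxc13 and Hoxd10 had no count in any library. The cells therefore combined the cardiac factors Gata4, Gata6 and Hand2 with very low Hox transcripts, while Hand1 and Tbx5 were not detected.

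Genes of the contractile apparatus of myofibroblasts were detected for 30 of 31 members. Tagln, which encodes the actin-binding protein SM22, was read at 700, 697 and 641 FPKM. Acta2 followed, then the myosin light chain Myl6 at 369, tropomyosin Tpm2 at 304 and Csrp1 at 281 FPKM. Late smooth muscle genes were low beside these, with Cnn1 at 2.38 FPKM and Myh11, the smooth muscle myosin, at 0.753 FPKM. Actg2, the enteric smooth muscle actin, had 0.407 FPKM. Compared with other actins, Actb, the cytoplasmic beta-actin, exceeded Acta2 by 4.12-fold, 3.98-fold and 3.77-fold, and Acta2 exceeded Actg1 by 1.14-fold ± 0.0227. Actin genes are closely alike in sequence, so reads shared between them make these ratios uncertain.

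Markers of other cell types were mostly undetected for cardiomyocytes, endothelium and epithelium, whereas more were read for macrophages and for smooth muscle, a list that shares Acta2 and Tagln with myofibroblasts. In bulk RNA, fewer cells of a type and less RNA per cell cannot be told apart. Of 15 cardiomyocyte markers in the table, 1 was detected, while 6 passed a lower threshold of 0.1 FPKM and 4 a threshold of 10 counts in every library. That gene was Tnnt2, cardiac troponin T, at 98.5, 90.8 and 97.6 FPKM, from 4263, 4051 and 4997 counts. The cardiomyocyte genes Ckm, Csrp3 and Ryr2 had no count in any library, Myh6 had 3, 1 and 0 counts and Tnnc1 stood at 1.00 FPKM. Tnnt2 thus stood alone in its list, with Tnnc1 as the next member.

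Endothelial markers were detected for 4 of 15 genes, with 7 at 0.1 FPKM and 8 at 10 counts. Egfl7 was the highest at 6.22 FPKM, ahead of Tek at 2.71 and Flt1 at 2.57 FPKM. The defining genes were at or near 0, with Pecam1 at 0.347 FPKM, Cdh5 at 0.0567 FPKM, Kdr at 0.0133 FPKM and no count for Emcn and Sox17. For pericytes, 5 of 12 genes were detected, against 50.1% of all genes. They were Ndufa4l2 at 92.1, Pdgfrb at 69.1, Cd248 at 51.7, Kcnj8 at 14.1 and Abcc9 at 2.29 FPKM. Fibroblasts also express Pdgfrb and Cd248, while Rgs5 stood at 0.0367 FPKM. The lower thresholds each gave 9 of the pericyte genes. For smooth muscle, 9 of 14 were detected, led by Tagln and Acta2, and all 14 passed either lower threshold.

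Macrophage and other leukocyte markers were detected for 17 of 25 genes. Lyz2, which encodes lysozyme, was read at 682, 607 and 666 FPKM. Cd68, a lysosomal glycoprotein of macrophages, was read at 108, 102 and 106 FPKM, and Tyrobp, an adaptor of myeloid receptors, at 97.4, 83.8 and 84.9 FPKM. Replicate 2 was lowest for each of these genes. Csf1r, the receptor that macrophages need to survive, stood at 7.93 FPKM, Adgre1 (F4/80) at 8.55 FPKM and Ptprc (CD45), shared by all leukocytes, at 2.07 FPKM. The T cell gene Cd3d, the B cell gene Cd79a and the neutrophil gene S100a9 had no count. The summed level of the list was 1210, 1085 and 1177 FPKM in replicates 1, 2 and 3. Its part in the levels of genes that macrophages also express was not tested.

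Epicardial and mesothelial markers were split, with 8 of 19 detected, against 50.1% of all genes. Aldh1a2, the retinoic acid synthesis enzyme, stood at 24.1, Upk1b at 9.62, Msln at 8.25, Tbx18 at 8.15 and Wt1 at 6.53 FPKM. Upk3b, Cdh1 and Krt7 were below 0.1 FPKM, and Krt19 had no count. For epithelial cells, 0 of 12 markers were detected, and 2 passed either lower threshold.

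The other lists each held a few expressed members. Lpl, lipoprotein lipase, reached 220 FPKM while Adipoq, the adiponectin gene, had no count, and 4 of 12 adipocyte genes were detected. Spp1, the osteopontin gene, reached 150 FPKM and Sox9 reached 2.62 FPKM, the 2 of 14 chondrocyte and osteoblast genes detected. Of the Schwann and neural list, 4 of 14 were detected, led by Tubb3 at 38.6 and Ncam1 at 19.1 FPKM. Of the skeletal muscle list, 2 of 10 were detected, and Myod1 had no count. At 0.1 FPKM the counts rose to 8 for adipocyte, 5 for chondrocyte and osteoblast and 8 for Schwann and neural genes, and at 10 counts to 7, 4 and 8.

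**Figure D3:**
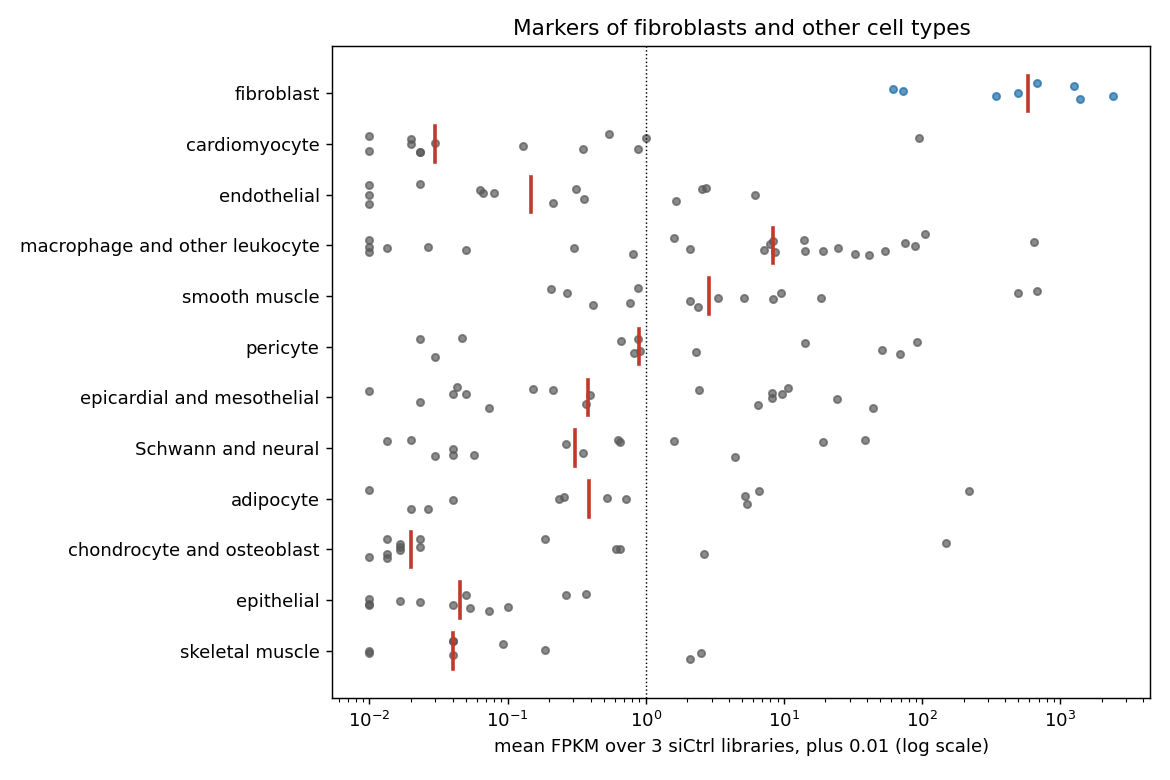
Each point is a marker gene with an FPKM value, placed by its mean over the 3 siCtrl libraries plus 0.01, in FPKM on a log scale, with rows for the fibroblast markers (blue) and 11 other cell types (grey), the median of each list as a red bar and 1 FPKM as a dotted line. The fibroblast markers have a median of 590 FPKM, whereas the list medians of the other classes lie at 8.32 FPKM for leukocytes, 2.87 FPKM for smooth muscle and below 1 FPKM for the remainder.

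Growth factors and their receptors were detected for 43 of 54 genes in the table. Among secreted factors, Gas6, the ligand of the receptor Axl, stood at 386 FPKM and Vegfd, a lymphatic growth factor, at 178 FPKM. Vegfa was read at 72.5, 93.2 and 91.6 FPKM and Vegfc at 75.0, 72.6 and 72.8 FPKM, so that their order differed between replicate 1 and the other libraries. Igf1 had a mean of 97.7 FPKM, whereas Igf2, the fetal relative, had 0.0733 FPKM. Binding proteins of the same pathway covered a wide span, from Igfbp3 at 566 FPKM to Igfbp5 at 0.0367 FPKM and Igfbp2 at 0.0267 FPKM.

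The TGF-beta pathway, a main driver of fibrosis, was read at the level of ligands and of receptors. The ligand Tgfb1 stood at 67.9 ± 3.90 FPKM and exceeded Tgfb3 by 7.62-fold, 7.49-fold and 6.47-fold. The type II receptor Tgfbr2 was read at 118, 124 and 124 FPKM, and the type I receptor Tgfbr1 at 4.85, 4.97 and 4.92 FPKM. Agtr1a, the angiotensin II receptor, was also well expressed, at 81.8, 83.5 and 78.0 FPKM. Of the endothelin receptors, Ednrb exceeded Ednra by 9.50-fold, 10.8-fold and 10.6-fold.

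Chemokines formed another abundant group, and cytokines and chemokines were detected for 25 of 32 genes. Ccl2, which attracts monocytes, was read at 983, 1012 and 743 FPKM, and the related Ccl7 at 953, 906 and 741 FPKM. Both were lowest in replicate 3. Cxcl12, the stromal chemokine, was steadier, at 267, 281 and 273 FPKM. Il6 stood at 20.9 FPKM, and Csf2 had no count in any library. In the whole list, 18 of 26 genes tested for spread were lowest in replicate 3 and 0 were highest there, compared with 3571 and 3897 of all 12755 genes.

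Complement and acute phase genes were detected for 22 of 24. After Lcn2, the proteases C1r and C1s, which start the classical pathway, had means of 729 and 552 FPKM. Their inhibitor Serping1 stood at 497 FPKM and C7, a component of the membrane attack complex, at 403 FPKM. C1qa, the recognition subunit that macrophages are known to make, stood at 41.5 FPKM, and C5 at 0.00667 FPKM. The enzymes of the C1 complex thus exceeded the recognition subunit in each library.

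Most proliferation genes were detected, but none reached a mean of 100 FPKM. Of 37 members, 28 (75.7%) were detected, against 50.1% of all genes, and the list median was above that of all genes. No mean was above that of Pcna, the sliding clamp of DNA replication, at 31.6 ± 0.645 FPKM. Rrm1 stood at 11.9 and Cdk1 at 10.4 FPKM. Mki67, the usual marker of cycling cells, was read at 1.10, 1.58 and 1.43 FPKM and Top2a at 1.13, 1.67 and 1.37 FPKM, with replicate 1 lowest for both. Cell cycle inhibitors, D-type cyclins and p53 targets were detected for all 21 genes in the table. Phlda3 led with 122 FPKM, and the inhibitor Cdkn1a (p21) was read at 105, 97.1 and 102 FPKM. Cdkn2a, the locus of p16 and p19Arf, was read at 39.4, 33.6 and 37.3 FPKM.

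Metabolic and chaperone genes were detected almost without exception. All 22 glycolysis genes were detected, led by Gapdh at 1757 FPKM and Aldoa at 974 FPKM, and Ldha exceeded Ldhb by 17.4-fold ± 0.678. The list of endoplasmic reticulum chaperones also holds other genes of that compartment and its stress response, such as Sec61b and Atf4. All 21 of its genes were detected, among them Calr at 1075, Pdia3 at 568, Hsp90b1 at 463 and Hspa5 (BiP) at 364 FPKM. Of the 22 genes for ferritin, metallothionein, antioxidant and lysosome proteins, 21 were detected. Fth1 exceeded Ftl1 by 1.83-fold ± 0.0286, and the transferrin receptor Tfrc stood at 3.31 FPKM. The neuronal metallothionein Mt3 stood at 0.0567 FPKM.

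Few well-known long noncoding RNAs could be read, because 5 of the 27 listed were matched by symbol. Gas5 was the most abundant gene annotated as a long noncoding RNA, at 438, 385 and 427 FPKM, and Tug1 stood at 6.22 FPKM. H19, an imprinted noncoding RNA of fetal tissue, had 2, 0 and 1 counts. Of 19 imprinted genes in the table, 8 were detected, led by Gnas at 58.8, Sgce at 44.2 and Igf2r at 40.9 FPKM, and 14 passed either lower threshold. Transcripts of chromosome Y were present, with Eif2s3y at 40.5, 40.3 and 39.7 FPKM and Kdm5d at a mean of 2.61 FPKM. Uty at 0.453, Ddx3y at 0.03 and Usp9y at 0 FPKM were not detected. Of 19 genes of that chromosome, 5 were detected, against 50.1% of all genes.

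The 3 libraries were close to each other but not copies. Pearson correlation of log2 CPM between pairs, which is across genes that are not independent replicates, ran from 0.9955 to 0.9965. The chi-square of the counts per degree of freedom, over genes with at least 10 counts, was 8.62 for replicates 1 and 2, 8.43 for 1 and 3 and 4.56 for 2 and 3, where counting error alone gives a value near 1. Replicates 2 and 3 were therefore the closest pair. The number of genes that differed beyond counting error was 3229 with all libraries and 996 without replicate 1. Over 12755 genes with a mean of at least 1 CPM, the median range was 0.15 on the log2 scale, and the common biological coefficient of variation was 5.48%.

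Counting error shaped the spread of low genes. Of 496 genes with a range of 1.5-fold or more, 419 had a mean between 1 and 5 CPM. There the median coefficient of variation was 13.0%, against 11.8% from counting alone. From 100 to 1000 CPM it was 3.47%, against 1.40% from counting, and 62.0% of genes differed beyond counting error. Above 1000 CPM, 98.6% of 144 genes did so, and 0 had a range of 1.5-fold. The count of 496 depends on the minimum, since 77 of 10448 genes reached 1.5-fold at a mean of 5 CPM or more. It was 199 without replicate 1, 248 without replicate 2 and 259 without replicate 3, where only 2 libraries enter the range.

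Interferon-induced genes, the antiviral programme that cells switch on after interferon or foreign nucleic acid, were the group that varied most among the lists described, with a median range of 0.59 on the log2 scale. They were also widely expressed, with 42 of 47 genes in the table detected and Ifi27 (659 FPKM), Bst2 (206 FPKM) and Isg15 (104 FPKM) at the top. Counts of 46 of the 47 differed beyond counting error, against 25.3% of all genes, and 24 had a range of 1.5-fold or more, against 3.89%. Replicate 3 was lowest for 45 genes, and the highest value lay in replicate 1 for 34 and in replicate 2 for 13. Without replicate 3, 7 genes had a range of 1.5-fold between the remaining libraries, without replicate 1 there were 12 and without replicate 2 there were 19. This count was chosen after the values were seen.

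Individual genes show how the libraries differed. Mx2, an interferon-induced GTPase, was read at 194, 146 and 76.5 CPM in replicates 1, 2 and 3, the largest range among named genes with a mean of at least 5 CPM, at 2.54-fold. Isg15, a ubiquitin-like modifier, was read at 108, 78.0 and 42.7 CPM, a range of 2.52-fold. Mx1, the antiviral dynamin relative, was read at 185, 150 and 76.6 CPM. These genes were highest in replicate 1 and lowest in replicate 3, whereas Rsad2 (viperin) and Cxcl10, an interferon-induced chemokine, were highest in replicate 2. Rsad2 was read at 33.5, 51.4 and 23.8 CPM, and Cxcl10 at 35.9, 62.6 and 30.4 CPM.

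Cxcl11, Oas2, RT1-T24-3, Ddx60 and Oas1a completed the 10 genes of largest range among those with a proper symbol, from 2.51-fold for Cxcl11 to 2.07-fold for Oas1a. The provisional genes LOC120098918 and LOC498453, left out of this naming, had ranges of 2.12-fold and 2.10-fold, the former lowest in replicate 3 and the latter highest there. RT1 genes have near-identical copies, and their values are uncertain. Each of the 10 genes with a proper symbol was lowest in replicate 3. Among the 77 genes at 5 CPM or more with such a range, 21 belonged to the interferon list, and replicate 3 was lowest for all 21, compared with 42 of the 77. Of the 8 fibroblast markers, 6 were highest in replicate 3. Of 18 leukocyte genes tested for spread, 12 were highest in replicate 1 and 14 were lowest in replicate 2, where the summed leukocyte level was also lowest. Cytokines and chemokines were lowest in replicate 3 for 18 of 26 genes. The part of cell types in the interferon pattern was not tested.

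**Figure D4:**
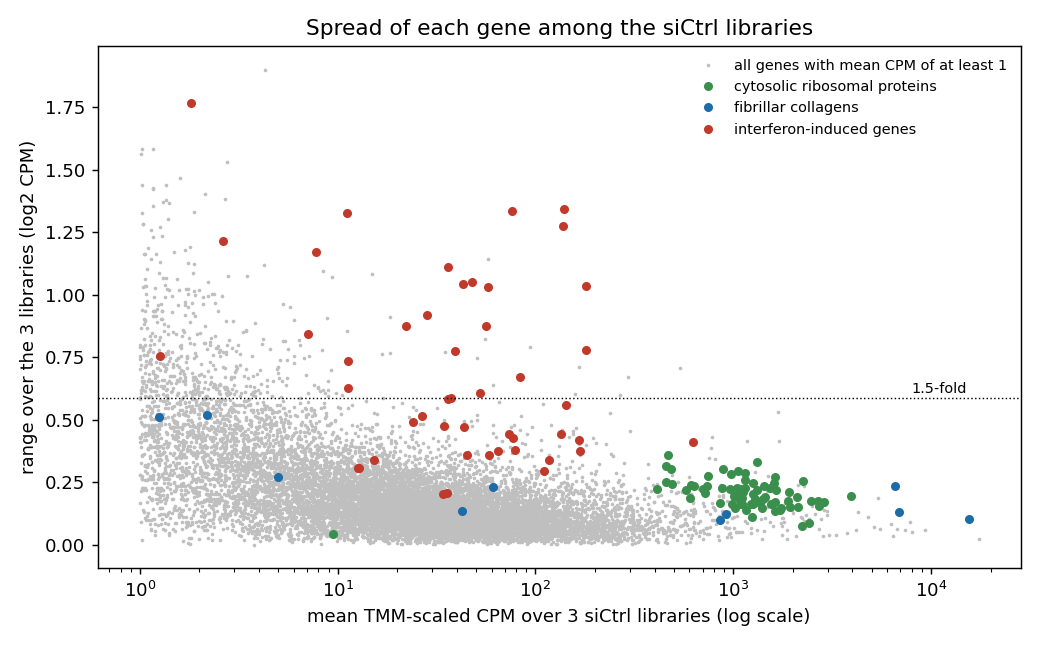
Each point is a gene, placed by its mean TMM-scaled CPM (log scale) and by the difference in log2 CPM between its highest and lowest siCtrl library, with interferon-induced genes in red, fibrillar collagens in blue, ribosomal protein genes in green and a dotted line at 1.5-fold. The median range narrows up to 1000 CPM, and 24 of 47 interferon-induced genes lie above the line, while 0 of the 10 fibrillar collagens and 0 of the 73 ribosomal protein genes do.

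Ribosomal protein genes moved by a small and even amount. The 73 cytosolic genes, all detected, gave 22.8% ± 0.855 of the summed FPKM and 9.61% ± 0.535 of the counts, with a median of 1633 FPKM. Counts of 72 differed beyond counting error, against 25.3% of all genes, but 0 had a range of 1.5-fold, and the median range was 0.20 on the log2 scale. Replicate 1 was highest for 72 genes, compared with 4698 of all 12755, and replicate 2 was lowest for 71, compared with 4301. The median difference was -0.20 for replicate 2 minus 1, -0.14 for replicate 3 minus 1 and 0.05 for replicate 3 minus 2. The exception in level was Rpl37, at 24.0 FPKM, while the other 72 each had a mean of at least 100 FPKM. Ribosomal genes have many near-identical processed copies, and the treatment of reads that match several places is not given in the sources used here.

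Gene length moved with the same contrast. Across 12700 genes, the Spearman correlation between gene length and the log2 difference was 0.379 for replicate 2 minus 1, 0.347 for replicate 3 minus 1 and -0.0846 for replicate 3 minus 2. These are descriptions across genes of the same libraries. Ribosomal protein genes are short, with a median of 759 bases recovered from counts and FPKM, against 3717 bases over all genes. The fibrillar collagens, with a median of 7650 bases, were lowest in replicate 1 for 9 of the 10 genes tested, compared with 4883 of all 12755. The part of gene length in either result was not tested.

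**Figure D5:**
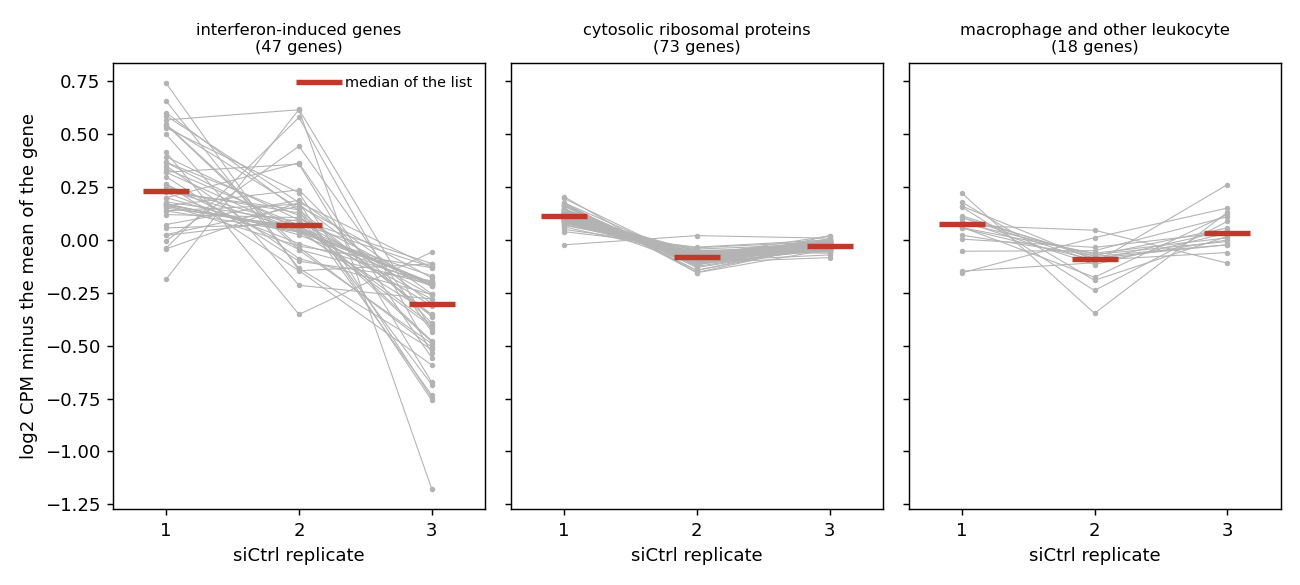
Each grey line joins the 3 siCtrl libraries for 1 gene, as log2 CPM minus the mean of that gene, and red bars mark the median of the list in each library. Of the 47 interferon-induced genes, 45 are lowest in replicate 3, the 73 ribosomal protein genes are slightly higher in replicate 1 in a narrow band, and the 18 macrophage and other leukocyte genes are lowest in replicate 2 for 14 genes.

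At the opposite end, the 5 named genes of smallest range at 5 CPM or more were Cct2, Pnpla7, Ywhaq, Nsfl1c and Ewsr1. Cct2, a subunit of the chaperonin that folds actin and tubulin, was read at 246.2, 246.1 and 246.1 CPM. Ywhaq, a 14-3-3 adaptor protein, was read at 306.3, 306.2 and 306.7 CPM. They are the extreme of 10448 genes in these libraries, and their spread in other samples was not tested.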

How the data were processed

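RNA from rat cardiac fibroblasts was DNase-treated, selected for poly(A) and made into stranded libraries, per the labels' protocols. HISAT2, edgeR and the build mRatBN7.2 are named in the submitters' processing notes. The way reads were counted, and whether by strand, is not given in the sources used here, nor are tool versions. Overlapping and antisense genes and near-identical copies are therefore uncertain. The authors deposited raw read counts per gene, which are whole numbers by their values, and FPKM values, which are scaled by gene length and library size. Only the 3 siCtrl columns were used. The columns of the libraries with the siRNA against Nono were left aside, and 0 columns belonged to samples outside the series.

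The FPKM values were used as deposited for levels, ranks and ratios within a library, and the FPKM table held 21081 of the 21378 genes. Counts were scaled by TMM in R 4.3.3 with edgeR 4.0.16, which also gave the coefficient of variation, and DESeq2 1.42.0 gave size factors for an alternative. Python 3.11.15, pandas 2.3.3, SciPy 1.17.1 and matplotlib 3.10.9 did the remainder. Spread was tested for genes with a mean of at least 1 CPM by a chi-square test with 2 degrees of freedom, Benjamini-Hochberg adjusted at 0.05. The range was taken on log2 CPM with 0.5 counts added. The test was checked on counts simulated with counting error only, with set changes in some genes. The real libraries spread more than that, and the check does not cover their further spread. Gene length was recovered from counts, FPKM and library totals. SD is over the 3 libraries. The reads carry no molecular identifiers, so depth limits cover counting error only.

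The members, the 28 gene lists and the 12 marker lists were chosen with earlier results of these data known. Named genes were the 8 markers, the 20 most abundant nuclear genes with a proper symbol, all mitochondrial mRNAs, up to 5 leading members of each list with its defining members and those near 0, and the 10 largest and 5 smallest ranges at a mean of 5 CPM or more. A few others were named after their values were seen. Gene positions and sequences are not printed. Alternatives covered detection thresholds, scaling, filters, pseudocounts and leaving out each library.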

Additional observations from a re-analysis of the deposited data

How the results depend on the processing

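The number of detected genes was 10713 and fell to 6644 at 5 FPKM. It stayed within 1.5 times under the other planned settings. The 100 most abundant genes held 44.2% of the summed FPKM, 39.5% without mitochondrial genes and 29.2% when taken as a share of counts. The number of genes beyond counting error ranged from 996, without replicate 1, to 2605 when 1 library was left out.

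The number of genes with a range of 1.5-fold depended most on the filter and scale: 496 became 62 on log2 of FPKM plus 1, 286 on log2 of FPKM plus 0.1, 6767 without a filter, 77 at a mean of 5 CPM, 27 at 20 CPM (added after seeing the data) and 199 to 259 with 1 library left out. Interferon-induced genes with such a range numbered 24, 15 on log2 of FPKM plus 1, and 7 to 19 with 1 library left out. Fewer genes and fewer libraries lower such counts by construction. The number of interferon-induced genes lowest in replicate 3 was 35 (at 20 CPM, with fewer genes tested) to 47, and that of ribosomal genes highest in replicate 1 was 72 in each setting run.

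Of 200 counts of members detected, 180 moved by at most 1.5 times and 20 by more, all upward at 0.1 FPKM or 10 counts. Of 198 list shares, 73 moved by over 1 SD, 36 as shares of counts and 37 without mitochondrial genes. Of 40 marker ranks, 8 moved, all by CPM. Depth limits the reading of genes under about 3 counts, and the labels do not tell technical from biological spread. No paired analysis was possible because no groups were compared, and only 1 group was described.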
